A study of Mus musculus with 6 samples.

Results

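Desmosomes are the spot-like junctions that hold epidermal cells together. Desmogleins and desmocollins, the desmosomal cadherins, bind their partners on the neighbouring cell. Inside the cell plakophilins and plakoglobin gather on the cadherin tails, and desmoplakin ties the whole plaque to the keratin filaments. In stratified epidermis the cadherin isoforms change with position: desmoglein 3, desmocollin 3 and the widely expressed desmoglein 2 and desmocollin 2 belong mainly to the lower layers, whereas desmoglein 1 and desmocollin 1 belong to the suprabasal layers. Merkel cells, the touch-sensing cells of the basal layer, also carry desmosomes with which they attach to keratinocytes.

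The genes described here are 10 desmosome genes, picked by name from the 54532 genes of the count table: the suprabasal cadherins Dsg1a, Dsg1b and Dsc1, the basal cadherins Dsg2, Dsg3, Dsc2 and Dsc3, and the plaque genes Pkp1, Pkp3 and Dsp. All 10 were found once in the table. RNA was measured by Smart-seq2, a full-length cDNA method for little input, in 6 libraries of dissociated dorsal epidermis from C57BL/6 mice aged 4 weeks, with no further allele or treatment. The 3 NCAM-enriched libraries hold DAPI-negative cells selected on beads and by sorting for polysialylated NCAM, the surface protein used to enrich Merkel cells, and the 3 bulk skin libraries hold DAPI-negative cells that were sorted without it. A library was prepared from 500 sorted events. Animals of both sexes were used. No source states whether libraries of a group came from separate animals, so p-values measure only the spread between these libraries.

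Library totals ran from 1343190 to 4481830 counts, and 1 count was worth 0.216 to 0.773 CPM (counts divided by TMM-adjusted library size, the unit used below unless stated). The selected libraries were not a single cell type by their markers. The 9 listed Merkel cell markers summed to 451 to 1602 CPM in the NCAM-enriched libraries and 132 to 176 in bulk skin, with 5 of 9 higher, and none of them was without counts in either group. The 10 listed suprabasal keratinocyte markers summed to 14073 to 36393 CPM against 1471 to 1655, with 7 of 9 tested higher, and Flg had no count in bulk skin. The 8 basal keratinocyte markers summed to 8803 to 32110 CPM against 13153 to 17215, and 0 of 8 were called by edgeR, DESeq2 or limma-voom. T cell markers (7 of 7 lower) summed to 3.09 to 44.6 CPM against 3287 to 3498, and Cd3d and Trac had no count in the NCAM-enriched libraries. Langerhans cell markers (5 of 6 lower) summed to 23.2 to 319 CPM against 9952 to 16941. Fibroblast markers (0 of 6 called by edgeR and DESeq2, 3 lower by limma-voom) reached 33003 CPM in NCAM-enriched library 2 against 363 and 41.7 in libraries 1 and 3 and 10356 to 18198 in bulk skin. Hair follicle markers (1 of 5 tested higher) summed to 6158 to 28754 CPM against 1772 to 2326, with Krt25, Krt27 and Krt75 at 0 counts in the NCAM-enriched libraries and Krt25 at 0 in bulk skin. Melanocyte markers (0 of 1 tested called by edgeR, DESeq2 or limma-voom) summed to 5.39 to 69.5 against 19.9 to 85.3 CPM, with Mlana at 0 in both groups and Tyrp1 at 0 in bulk skin. What part these differences in cell content have in the values below was not tested, and fewer cells of a type cannot be told from less RNA per cell.

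Desmosome RNA was more abundant in the NCAM-enriched libraries. The 10 genes together took 0.647 ± 0.0857% (SD, n = 3) of all counts there and 0.209 ± 0.039% in bulk skin. Of these genes, 9 passed the count filter, and edgeR's quasi-likelihood test with Benjamini-Hochberg adjustment over 13157 genes called 2 higher (Dsc1 and Dsp) and 0 lower. Over all genes tested, 1.04% were called higher and 1.55% lower, 2.59% in all. With libraries scaled to the summed basal and suprabasal keratinocyte markers, 0 of the 9 were called (2 higher at an unadjusted p under 0.05). Over all genes the 137 higher and 204 lower calls became 67 and 1753, with 187 of 13157 higher at an unadjusted p under 0.05. With TMM factors and an unadjusted p under 0.05, 6 of the 9 were higher and 0 lower, where 8.73% of all genes were higher. On the same genes DESeq2 called 6 higher and 0 lower (5.06% of all genes higher and 7.1% lower), and limma-voom 5 and 0 (2.67% and 6.45%). The groups did not overlap for 7 of the 9, each time with the NCAM-enriched libraries above, against 11.1% of all genes above and 19.3% below. The log2 fold change was above 0 for 8 of the 9 and for 47.7% of all genes. The median log2 fold change of the 9 was 1.48, beside -0.07 for all genes. Leaving out NCAM-enriched library 1 or any 1 of the bulk skin libraries removed both edgeR calls. Leaving out NCAM-enriched library 2 gave 5 calls (Dsc1, Dsp, Dsg1a, Pkp1 and Pkp3). Without NCAM-enriched library 3 there were 3 (Dsc1, Dsp and Dsg1b). Over all genes, 60, 444 and 1099 were called higher without NCAM-enriched library 1, 2 and 3. Without bulk skin library 1, 2 and 3 it was 0, 0 and 1. Such changes were thus not particular to the desmosome genes. Blocking on replicate number gave 0 calls among these genes, with 6 of 9 at an unadjusted p under 0.05. Over all genes it gave 50 higher and 92 lower, and 742 of 13157 were higher at an unadjusted p under 0.05.

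**Figure D1:**
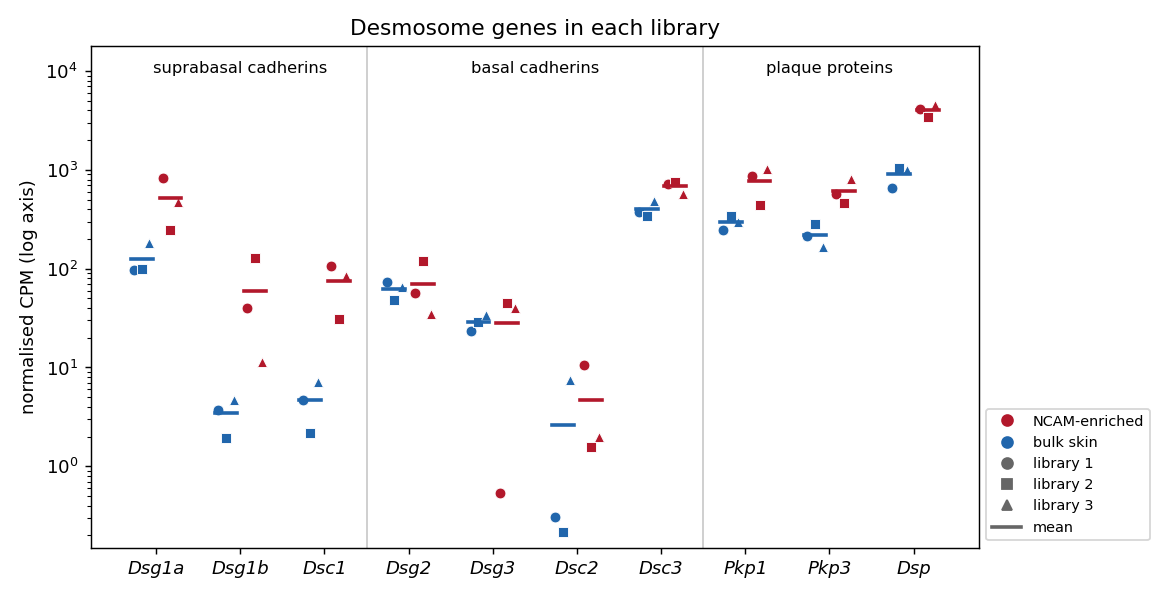
Normalised CPM (log axis) of the 10 desmosome genes in each library, NCAM-enriched in red and bulk skin in blue, with marker shape for library number and a bar for the mean of 3. The NCAM-enriched libraries lie above all bulk skin libraries for Dsg1a, Dsg1b, Dsc1, Dsc3, Pkp1, Pkp3 and Dsp, and the groups overlap for Dsg2, Dsg3 and Dsc2.

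Dsp encodes desmoplakin, the plaque protein that binds keratin filaments, and was the most abundant of the 10 genes in both groups. It lies on chromosome 13 (38151294 to 38198577, plus strand, GRCm38), and 5.17% of its 9659 exonic bases overlap the gene Gm10129. Dsp had 4099, 3460 and 4529 CPM in NCAM-enriched libraries 1, 2 and 3, and 658, 1044 and 1000 in bulk skin libraries 1, 2 and 3. Every NCAM-enriched library was above every bulk skin library, and the spread within each group was small beside the gap. The means were 4029 ± 538 and 900 ± 211 CPM (SD, n = 3), a log2 fold change of 2.16 ± 0.45 (SE; 95% interval 1.14 to 3.18; edgeR adjusted p = 0.0440). The log2 fold change ran from 1.93 to 2.25 when single libraries were left out, and the adjusted p from 0.0116 to 0.285. When libraries were scaled to the summed counts of the basal and suprabasal keratinocyte markers in place of all genes, it was 0.99 (adjusted p = 0.182), under a scaling that moved the median of all genes to -1.23.

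The sequence before the start of Dsp is shown because it was the only promoter of the 10 genes in the RefSeq table used (GRCm38.p6), and that of Jup, the plakoglobin gene, because its RNA is set beside Dsp below. Each is the 250 bases before the annotated start, 5′ to 3′ on the gene's strand, with CpG dinucleotides in capitals. They lie at chr13:38151044-38151293 (plus strand) and chr11:100397791-100398040 (minus strand).
Dsp: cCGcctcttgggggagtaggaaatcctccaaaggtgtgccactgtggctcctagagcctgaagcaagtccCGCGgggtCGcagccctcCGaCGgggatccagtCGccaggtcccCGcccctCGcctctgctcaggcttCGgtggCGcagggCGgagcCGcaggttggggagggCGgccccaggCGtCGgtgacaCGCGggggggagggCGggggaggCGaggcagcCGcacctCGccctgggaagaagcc
Jup: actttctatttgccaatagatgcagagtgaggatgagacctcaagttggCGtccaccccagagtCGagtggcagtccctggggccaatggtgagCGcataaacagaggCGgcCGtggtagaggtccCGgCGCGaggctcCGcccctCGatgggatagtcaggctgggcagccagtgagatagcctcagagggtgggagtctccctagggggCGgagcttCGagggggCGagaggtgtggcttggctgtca
The Dsp sequence has 22 CpG and 72.4% G and C, and that of Jup 13 CpG and 62.0%, where the medians of 32851 promoters were 6 CpG and 52.4%. At least as many CpG were found in 14.8% of promoters for Dsp and 31.5% for Jup. On either strand, neither sequence held the AP-1 motif TGANTCA, the grainyhead motif AACNGGTT, the TEAD motif GGAATG or the TATA motif TATAAA, which 6.75%, 1.79%, 12.6% and 12.4% of all such promoters hold. That says only that these letters are not in this window.

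The plakophilins link the cadherin tails to desmoplakin. Pkp1 (chromosome 1, 135871395 to 135919207, minus strand), the plakophilin best known from suprabasal epidermis, had 867, 442 and 1019 CPM in the NCAM-enriched libraries and 248, 340 and 297 in bulk skin. Pkp3 (chromosome 7, 141078218 to 141090510, plus strand), which is found throughout the epidermis, had 575, 463 and 815 against 213, 284 and 165 CPM. For both genes the lowest NCAM-enriched library was library 2, and it was still above all 3 bulk skin libraries. The log2 fold changes were 1.39 ± 0.42 (SE; 95% interval 0.45 to 2.34) for Pkp1 and 1.48 ± 0.39 (0.59 to 2.38) for Pkp3. Neither passed over all genes in edgeR (adjusted p = 0.105 and 0.0783), and both did in DESeq2 on the same genes (adjusted p = 0.0173 and 0.00631) and in limma-voom. The ratio of Pkp1 to Pkp3 per kb of exonic length was 0.889 ± 0.197 in the NCAM-enriched libraries and 0.996 ± 0.255 in bulk skin, and the groups overlapped.

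The cadherin genes form a cluster on chromosome 18 (19960930 to 20604521, GRCm38). Dsc1, the desmocollin of the upper epidermis, rose in the NCAM-enriched libraries, and whether its change differed from that of Dsg1a or Dsg1b was not tested. It had 107, 30.9 and 84.8 CPM in the NCAM-enriched libraries, from 202, 40 and 299 counts, and 4.66, 2.16 and 7.13 CPM in bulk skin, from 15, 10 and 26 counts. The lowest NCAM-enriched value, that of library 2, lay above the highest bulk skin value. The log2 fold change was 4.00 ± 0.77 (SE; 95% interval 2.25 to 5.75; edgeR adjusted p = 0.0362). It stayed between 3.61 and 4.4 when single libraries were left out, while the adjusted p ran from 0.00466 to 0.241. DESeq2 on the same genes and limma-voom also called Dsc1.

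Desmoglein 1, the target of antibodies in pemphigus foliaceus, is encoded in the mouse by the near copies Dsg1a, Dsg1b and Dsg1c. Of the 50-base stretches in their transcripts, 35.0% for Dsg1a, 48.9% for Dsg1b and 29.6% for Dsg1c also occur in transcripts of other genes, chiefly one another. The reads were 50 bases long, so the split of counts between the copies is uncertain. Dsg1a had 825, 246 and 471 CPM in the NCAM-enriched libraries and 96.9, 99.9 and 181 in bulk skin. Dsg1b had 40.4, 127 and 11.4 against 3.73, 1.95 and 4.66 CPM. Neither gene's groups overlapped, but the NCAM-enriched libraries differed among themselves by 3.36-fold for Dsg1a and 11.2-fold for Dsg1b. Library 2 was the lowest of them for Dsg1a and the highest for Dsg1b, and library 1 was above library 3 for both genes. The log2 fold changes were 2.03 ± 0.52 (SE; 95% interval 0.85 to 3.20; edgeR adjusted p = 0.0719) and 4.10 ± 1.01 (1.80 to 6.40; 0.0676). DESeq2 on the same genes called both (adjusted p = 0.00499 and 0.000379), and limma-voom called Dsg1a only. Dsg1c had 20 counts in NCAM-enriched library 3, 4 in bulk skin library 1 and 0 in the other libraries, and was not tested.

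Of the 3 basal cadherins tested, 0 passed in edgeR, DESeq2 or limma-voom, and 0 had an unadjusted p under 0.05 in edgeR. Dsc3, the main desmocollin of the basal layer, was on average the most abundant cadherin in both groups. It had 724, 749 and 569 CPM against 376, 342 and 482, so that the groups did not overlap, with a log2 fold change of 0.77 ± 0.35 (SE; 95% interval -0.03 to 1.56; edgeR adjusted p = 0.282). Its sign turned with the scaling to the basal and suprabasal keratinocyte markers (-0.30), under which the median of all genes was -1.23. It was 1.09 with the scaling to basal markers alone, where that median was 0.13. Dsg2, the widely expressed desmoglein, had 56.3, 120 and 35.2 against 73.3, 48.0 and 64.7 CPM. The groups overlapped, with NCAM-enriched library 2 highest of all and library 3 lowest (log2 fold change 0.18 ± 0.54; 95% interval -1.04 to 1.40; adjusted p = 0.905), and 3.99% of its exonic bases overlap Gm16090. Dsg3, the pemphigus vulgaris antigen of the lower layers, had 0.531, 44.8 and 39.7 against 23.6, 29.2 and 34.0 CPM. NCAM-enriched library 1 held a single count of Dsg3, while the other NCAM-enriched libraries were above all of bulk skin (log2 fold change -0.03 ± 1.10; 95% interval -2.52 to 2.46; adjusted p = 0.991). These intervals allow changes of over 1 log2 unit in either direction for Dsg2 and over 2 for Dsg3. Dsc2, the desmocollin of simple epithelia, had 20, 2 and 7 counts against 1, 1 and 27 and did not pass the count filter.

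**Figure D2:**
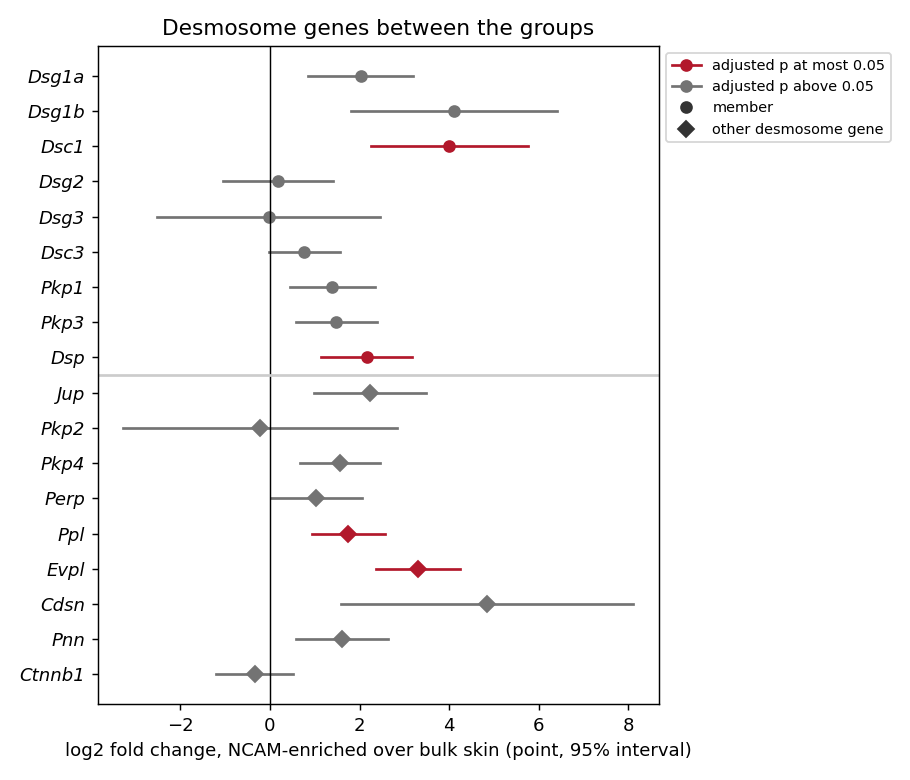
Log2 fold change between the groups (point) with its 95% interval (line) for the 9 tested members (circles) and 9 other desmosome genes (diamonds), in red where the edgeR adjusted p was at most 0.05. The called genes are Dsc1, Dsp, Ppl and Evpl, and the intervals of Dsg2, Dsg3, Dsc3, Pkp2 and Ctnnb1 include 0.

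Suprabasal and basal isoforms were also compared as ratios of counts within each library, which use no scaling between libraries. The 1 added to each side weighs most where counts are few, as for Dsc2 and for Dsg3 in NCAM-enriched library 1. Such ratios also move with the mix of epidermal layers in a library, and the suprabasal keratinocyte markers differed between the groups as given above. The part of that mix in the ratios was not tested. The log2 ratio of Dsc1 to Dsc3 counts (1 added to each) was -2.75, -4.56 and -2.74 in the NCAM-enriched libraries and -6.24, -7.17 and -6.03 in bulk skin, a difference of 3.13. That of Dsg1a and Dsg1b together to Dsg3 was 9.67, 3.04 and 3.59 against 2.08, 1.80 and 2.44, a difference of 3.33, or 1.21 without NCAM-enriched library 1. In both ratios every NCAM-enriched library stood above every bulk skin library. The ratio of Dsg1a and Dsg1b to Dsg2 was 3.93, 1.63 and 3.77 against 0.46, 1.08 and 1.52, a difference of 2.09, in which NCAM-enriched library 2 was only just above bulk skin library 3. The ratio of Dsc1 to Dsc2 was 3.27, 3.77 and 5.23 against 3, 2.46 and -0.05, a difference of 2.29 that rests on few Dsc2 counts, was 1.36 without bulk skin library 3, and had overlapping ranks once 0.5 was added in place of 1 (exact permutation p = 0.2). Each of the 4 differences had an exact two-sided permutation p of 0.1, the smallest that 3 against 3 can give, and 0.1 after Benjamini-Hochberg adjustment over the 4, so none could pass 0.05 in this design.

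Expressed per kb of exonic length, the suprabasal isoforms made up 55.3, 33.8 and 47.0% of the summed level of the 7 cadherins in NCAM-enriched libraries 1, 2 and 3, and 18.7, 20.1 and 25% in bulk skin. The share was 45.4 ± 10.8% against 21.3 ± 3.31% (SD, n = 3), and the groups did not overlap. The difference was 24.1 percentage points, and 8.77 with Dsg1a and Dsg1b left out. Dsg1a carried most of it, at 33.8 ± 14.2% against 19.7 ± 3.14%, though here the groups overlapped because NCAM-enriched library 2 had 17.9%. Dsc1 made up 5.64 ± 2.73% against 0.804 ± 0.298%. Dsc3 took 49.2 ± 7.79% against 67.6 ± 2.45%. The lower share of Dsc3 came with a higher level of Dsc3 itself. The summed basal isoforms were 140 ± 22.2 CPM per kb against 86.1 ± 15.2 and the suprabasal isoforms 120 ± 50.1 against 24 ± 9.12. Desmogleins summed to 162, 96.3 and 95.7 CPM per kb in the NCAM-enriched libraries and to 30.2, 28.0 and 45.7 in bulk skin, and desmocollins to 157, 145 and 123 against 70.6, 63.8 and 92.1. These shares are sums over chosen genes and were not tested. The lengths include stretches that Dsg1a and Dsg1b share with other genes. How reads from those stretches were counted is not stated, so the levels per kb of Dsg1a and Dsg1b are uncertain.

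**Figure D3:**
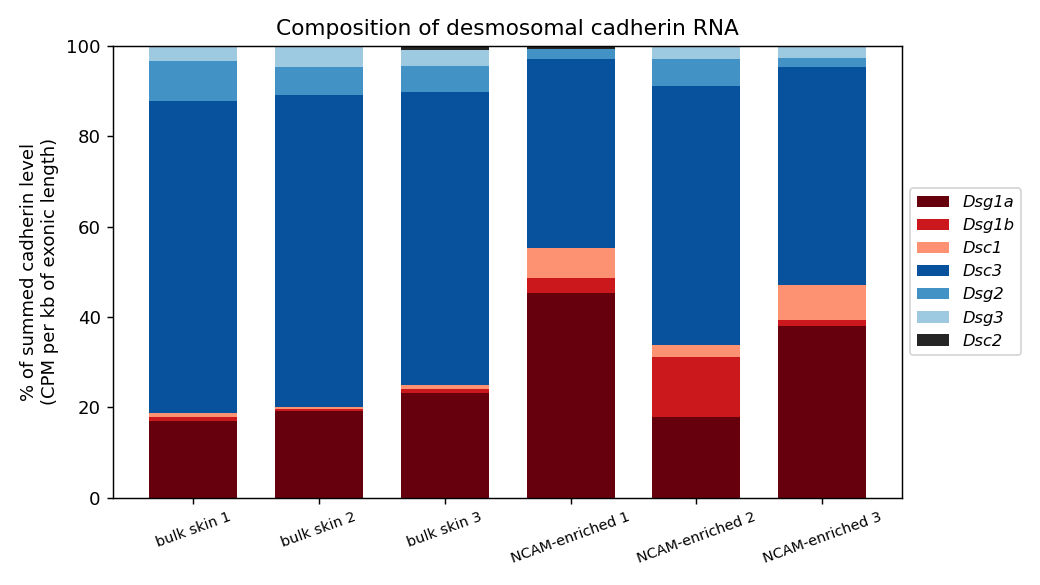
Share of each cadherin in the summed cadherin level (percent of CPM per kb of exonic length) in each library, suprabasal isoforms in reds and basal isoforms in blues and black. The red part spans 33.8 to 55.3% in the NCAM-enriched libraries and 18.7 to 25% in bulk skin, and Dsc3 is the largest basal part in all 6 libraries.

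The order of levels per kb was led by Dsp in both groups. In the NCAM-enriched libraries Dsp (417 ± 55.7 CPM per kb) was followed by Pkp3 (171 ± 49.7), Pkp1 (154 ± 59.5), Dsc3 (126 ± 18.0), Dsg1a (90.4 ± 51.4), Dsg1b (15.1 ± 15.2), Dsc1 (14.7 ± 7.79), Dsg2 (8.52 ± 5.32), Dsg3 (4.06 ± 3.47) and Dsc2 (0.894 ± 0.970). Ranges of neighbours in that order overlapped except between Dsp and Pkp3 and between Dsg1a and Dsg1b. In bulk skin the order was Dsp (93.2 ± 21.9), Dsc3 (74.1 ± 13.5), Pkp3 (61.1 ± 16.5), Pkp1 (58.8 ± 9.18), Dsg1a (22.2 ± 8.42), Dsg2 (7.50 ± 1.56), Dsg3 (4.15 ± 0.746), Dsc1 (0.922 ± 0.492), Dsg1b (0.869 ± 0.348) and Dsc2 (0.501 ± 0.781). There the ranges of neighbours did not overlap from Pkp1 to Dsg1a, Dsg2, Dsg3 and Dsc1, and the first 4 genes overlapped in turn, as did the last 3. Dsc1 and Dsg1b thus stood below Dsg2 and Dsg3 in bulk skin and level with or above them on average in the NCAM-enriched libraries, where the ranges overlapped.

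Against the cadherins, desmoplakin RNA took a larger part in the NCAM-enriched libraries. The level of Dsp per kb was 1.33, 1.48 and 2.15 times the cadherin sum there and 0.675, 1.18 and 0.751 times in bulk skin. Relative to Pkp1 it was 2.46, 4.07 and 2.31 against 1.38, 1.6 and 1.75. The groups did not overlap in either ratio. Relative to Jup the ratio was 0.882, 1.49 and 0.780 against 1.10, 0.743 and 1.39, and the groups overlapped.

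Of 11 further desmosome genes in a fixed list, 9 were tested, of which edgeR called 2 higher (Ppl and Evpl) and 0 lower, and 7 were higher and 0 lower at an unadjusted p under 0.05. DESeq2 on the same genes called 6 higher and limma-voom 4, with 0 lower in each. Over all genes, edgeR called 1.04% higher and 1.55% lower, DESeq2 5.06% and 7.1%, and limma-voom 2.67% and 6.45%. At an unadjusted p under 0.05 in edgeR, 8.73% of all genes were higher. The median log2 fold change of the 9 further genes was 1.61, beside -0.07 for all genes. Both called genes encode plakins, relatives of desmoplakin that lie under the cornified envelope. Evpl, envoplakin, had 569, 443 and 619 CPM against 36.9, 74.8 and 52.6, with a log2 fold change of 3.31 ± 0.41 (SE; edgeR adjusted p = 0.00939). Ppl, periplakin, had 670, 670 and 789 against 179, 183 and 270 (1.75 ± 0.36; adjusted p = 0.0415). The NCAM-enriched libraries were close to one another for both genes and well above bulk skin. With any 1 bulk skin library left out neither gene passed (adjusted p up to 0.101 for Evpl and 0.282 for Ppl), and Ppl also missed without NCAM-enriched library 1. Over all genes, leaving out bulk skin library 1, 2 or 3 left 0, 0 and 1 called higher. The level of Evpl per kb was 0.204 ± 0.00850 of that of Dsp in the NCAM-enriched libraries and 0.0909 ± 0.0151 in bulk skin.

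Jup, plakoglobin, which binds the tails of desmosomal cadherins, had 3098, 1544 and 3870 CPM against 399, 935 and 478 (log2 fold change 2.23 ± 0.55; edgeR adjusted p = 0.0670). Cdsn, corneodesmosin, an adhesive protein of the desmosomes of cornified cells, had 1275, 129 and 1040 against 0, 45.4 and 38.9 CPM (4.85 ± 1.44; adjusted p = 0.102). Perp, a membrane protein of desmosomes, had 4536, 2672 and 4540 against 1919, 1821 and 1988 (1.04 ± 0.45; adjusted p = 0.255). For these 3 genes the groups did not overlap, with NCAM-enriched library 2 the lowest of its group each time. Pkp4, a relative of the plakophilins, and Pnn, pinin, a nuclear protein first described at desmosomes, differed by 1.57 ± 0.39 log2 units (adjusted p = 0.0698) and 1.61 ± 0.45 (0.0897). Ctnnb1, beta-catenin of the adherens junction, had 202, 163 and 337 against 261, 328 and 300 CPM, and the groups overlapped (-0.34 ± 0.38; adjusted p = 0.698). Pkp2, the plakophilin of heart and simple epithelia, had 37 counts against 55 in all (-0.22 ± 1.34; adjusted p = 0.956). Dsg4, the desmoglein of the hair shaft, had 24 counts, all in NCAM-enriched library 3, and was not tested.

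Desmosomes anchor keratins, and 10 keratin genes were read beside them. Of 9 tested, edgeR called 3 higher (Krt10, Krt77 and Krt20) and 0 lower, and 6 were higher and 0 lower at an unadjusted p under 0.05. DESeq2 on the same genes called 6 higher and 0 lower and limma-voom 3 and 0. The shares of all genes called higher were 1.04% in edgeR, 5.06% in DESeq2 and 2.67% in limma-voom. For an unadjusted p under 0.05 in edgeR the share was 8.73%. Of the suprabasal keratins, Krt10 rose by 3.97 ± 0.62 log2 units (edgeR adjusted p = 0.0190) and Krt77 by 4.61 ± 0.56 (adjusted p = 0.00884). Krt1, the partner of Krt10, had 2528, 1177 and 257 against 252, 344 and 145 CPM, and the groups overlapped (2.42 ± 0.76; adjusted p = 0.121). The basal keratins Krt5, Krt14 and Krt15 had log2 fold changes of 0.23 ± 0.64, 0.32 ± 0.65 and 0.09 ± 0.68 (adjusted p = 0.894, 0.853 and 0.963). For these 3 keratins NCAM-enriched library 3 was the highest of all 6 libraries. NCAM-enriched library 2 lay below all of bulk skin for each, and library 1 did for Krt5 and Krt14. The Merkel cell keratins Krt8 and Krt18 differed by 1.92 ± 0.55 and 2.14 ± 0.56 log2 units without passing (adjusted p = 0.0927 and 0.0771), and Krt20 rose by 3.21 ± 0.51 (adjusted p = 0.0196). Krt2, a keratin of upper epidermis, had 31 counts against 9 and was not tested. With 1 bulk skin library left out, whichever it was, 0 of 9 keratins were called, with 5 or 6 at an unadjusted p under 0.05. In those fits edgeR called 0, 0 and 1 genes higher over all genes, so the loss was not particular to keratins. At an unadjusted p under 0.05, 1125, 1137 and 1142 genes were higher there, of 15144, 14871 and 14741 tested.

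The genes most like Dsp over the 6 libraries were Rarg, Tcf20, Epn3, Kif21a and Vamp2, out of 8633 genes whose mean reached 20 CPM. Likeness was the root-mean-square difference in log2(CPM + 1), each gene centred on its own mean, and it was 0.166 for Rarg and 0.227 for Vamp2. Those most like Pkp1 were Tmem94 (0.134), Csnk2a2, Dab2ip, Cdkn1a and Dnm2 (0.159). For Dsc1 the nearest were farther off, from 0.422 for Atoh1 through Krtdap, Calm4 and Asprv1 to 0.472 for Mboat2. Atoh1 is the transcription factor that specifies Merkel cells, whereas Krtdap, Calm4 and Asprv1 are genes of differentiating keratinocytes, and Dsc1 lay near both in these 6 libraries.

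**Figure D4:**
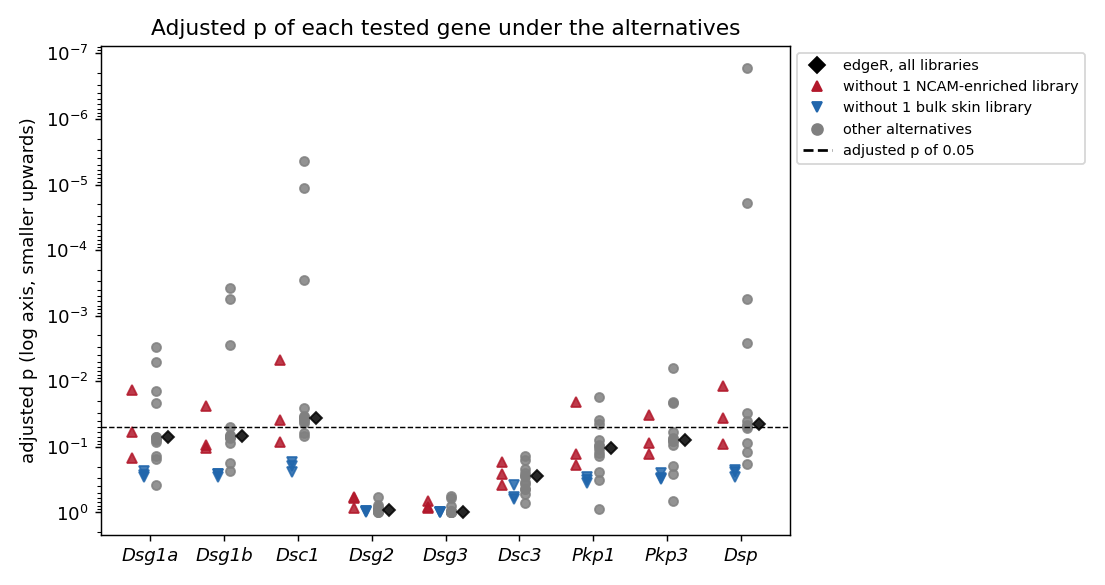
Adjusted p (log axis, smaller upwards) of the 9 tested desmosome genes with all libraries in edgeR (black), without 1 NCAM-enriched library (red), without 1 bulk skin library (blue) and under the other alternatives (grey). The black points of Dsc1 and Dsp alone lie past 0.05, no blue point does, and Dsg2, Dsg3 and Dsc3 pass in no setting.

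Across the 18 alternatives Dsc1 was called in 12, Dsp in 10, Dsg1a and Dsg1b in 5 each, Pkp1 and Pkp3 in 4 each, and Dsg2, Dsg3 and Dsc3 in 0. The log2 fold changes of Dsg1a, Dsg1b, Dsc1, Pkp1, Pkp3 and Dsp were above 0 in all 18. With the scaling to the basal and suprabasal keratinocyte markers they ranged lowest for Pkp1, at 0.11, and Pkp3, at 0.30. Dsc1 kept a log2 fold change of 2.63 there (adjusted p = 0.0672).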

How the data were processed

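Single-end Smart-seq2 reads of 50 bases were clipped, filtered, aligned to GRCm38 with STAR and counted with featureCounts by the authors. They deposited unnormalised counts per gene. Which annotation release and strand option they used is not given in the sources used here, and Smart-seq2 does not mark strand, so reads of overlapping genes cannot be told apart. Samples were grouped by their labels.

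Genes passing filterByExpr (a minimum of 2.94 CPM in 3 libraries) were scaled with TMM factors and compared by the quasi-likelihood F-test of edgeR 4.0.16 in R 4.3.3. Benjamini-Hochberg adjustment ran over 13157 genes, and genes with an adjusted p no larger than 0.05 were called. The common biological coefficient of variation was 0.744. Each SE was obtained from the log2 fold change and the F statistic. Ratios within libraries were compared with exact two-sided permutation tests. The edgeR fit was also run on simulated counts with the dispersions of these libraries. It called 6.06% of 4-fold changes and 52.5% of 16-fold changes there. A gene that did not pass can therefore still have changed by such amounts.

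Reads carry no molecular identifiers, so counting intervals cover counting error only. Positions and exonic lengths are from GENCODE M21 and promoters from RefSeq (GRCm38.p6), where 1 of 10 members matched. The members and lists were chosen with earlier results of these data known. The genes named are the members, 11 further desmosome genes, 10 keratins, the 5 nearest in pattern to each of Dsp, Pkp1 and Dsc1, and markers without counts.

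Alternatives were DESeq2 1.42.0, limma-voom (limma 3.58.1), other scaling factors and filters, robust dispersion, a replicate block and leaving out each library. DESeq2 restricted to the genes edgeR tested, and scaling to both keratinocyte lists, were added after seeing the data. Plots were made with matplotlib 3.10.9 (Python 3.11.15).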

Additional observations from a re-analysis of the deposited data

How the results depend on the processing

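The number of desmosome members called higher, 2 of 9 tested, was 6 with DESeq2 on all genes and 6 on the genes edgeR tested, 5 with limma-voom, 4 in edgeR on all genes with at least 1 count, 1 with upper quartile factors, 0 with the scaling to basal and suprabasal keratinocyte markers, and 0 to 5 when single libraries were left out. For the other desmosome genes (2 called higher) these counts were 6, 6, 4, 4, 1, 1 and 0 to 4, and 1 with the scaling to basal markers alone. With the scaling to both keratinocyte lists 1 of them, Ctnnb1, was called lower in place of 0. For the keratins (3 called higher) the count was 6, 6 and 5 with DESeq2, DESeq2 on the edgeR genes and edgeR on all genes, and 0 to 6 when single libraries were left out. Over all genes (137 higher and 204 lower), the calls were 1257 and 1094 with DESeq2, 661 and 928 on the edgeR genes, 769 and 741 without the filter, 351 and 849 with limma-voom, 67 and 1753 with the scaling to both keratinocyte lists, and 0 to 1099 and 13 to 733 without single libraries. Calls ended by fewer libraries come with less data, and otherwise the cause was not tested.

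The sign of Dsg2 (0.18) turned with the scaling to both keratinocyte lists (-0.66) and limma-voom (-0.19), and its log2 fold change ran from -0.45 to 0.43 without single libraries. Dsg3 (-0.03) turned with the scaling to basal markers (0.10) and ran from -0.51 to 0.53. Dsc3 (0.77) turned with the scaling to both lists (-0.30). The median of all genes was -1.23 with that scaling, beside -0.07 with TMM factors. The difference in the suprabasal share, 24.1 percentage points, was 8.77 with Dsg1a and Dsg1b left out and 19.1 to 29.8 without single libraries. The cause was not tested.

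No source states whether libraries with the same replicate number share an animal or a preparation. Their deviations from the group means correlated at 0.0226, 0.00025 and -0.00436. That cannot settle the question, because spread between single libraries can hide a shared source. With the replicate block, 0 members, 1 other desmosome gene (Evpl) and 3 keratins were called higher, and 50 higher and 92 lower over all genes. Taken in pairs, the 4 isoform ratios have the same differences by arithmetic, so only the p could change. The exact p was then 0.25, the smallest that 3 pairs allow. Depth limits Dsc2 most, with 29 counts in each group, and then Dsg1b (38 counts) and Dsc1 (51 counts) in bulk skin.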

Other observations

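Several desmosome genes had 1 library that stood apart from the others of its group, and these were chosen after their values were seen. NCAM-enriched library 1 held 1 count of Dsg3 (exact 95% Poisson interval 0.0253 to 5.57 counts, for counting error only), or 0.531 CPM with an upper bound of 2.96, where the other 5 libraries had 23.6 to 44.8 CPM. The same library had the highest Dsg1a of all, 825 CPM. NCAM-enriched library 2 held 165 counts of Dsg1b (127 CPM, interval 109 to 148), and Dsg1b made up 34.2% of the Dsg1a and Dsg1b counts there, beside 1.91 to 4.67% in the other 5 libraries. The same library had the highest fibroblast marker sum.

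NCAM-enriched library 3 held all 24 counts of Dsg4 (interval 15.4 to 35.7) and 20 of the 24 counts of Dsg1c. Bulk skin library 3 held 27 of the 29 bulk skin counts of Dsc2 (interval 17.8 to 39.3), while the NCAM-enriched libraries held 20, 2 and 7. Bulk skin library 1 had 0 counts of Cdsn, with an exact interval up to 3.69 counts or 1.15 CPM, whereas the other bulk skin libraries had 210 and 142 counts.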
